A study of Mus musculus with 6 samples.

Results

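The 10 genes described here encode interleukins and the colony-stimulating factors of myeloid cells, taken by name: Csf1, Csf2, Csf3, Il1a, Il1b, Il1rn, Il6, Il23a, Il24 and Lif. They have 20 probes among the 45281 of the array, and 8 of the 10 genes were detected well enough to be tested, among 9348 genes tested in all. A probe was kept when its detection p-value, the chance of such a signal from the array's negative controls, was under 0.05 on 3 or more of the 6 arrays of both groups. Il6 and Il1rn did not reach this mark.

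The cells were 4T1, a mammary carcinoma line that arose spontaneously in a BALB/c mouse, grown in RPMI medium with fetal bovine serum and transfected with a plasmid for a short hairpin RNA. In 4T1-SC the hairpin was a scrambled control (3 arrays). In 4T1-MMP3lo it was directed against Mmp3, which encodes stromelysin-1, a secreted protease of the matrix (3 arrays). The methods describe stable transfection and antibiotic selection, which both groups share, and the titles of the 4T1-MMP3lo arrays carry a tag, Cl1, which the labels do not explain. The study calls the Mmp3 hairpins it chose among clones and went on with the first of them, to which the tag may refer. That choice was made in another line, the CMS4 sarcoma, and for 4T1 the methods say only that similar methods served. Each array is a separate biological replicate per the design text, and each title ends in a suffix read here as a day. That suffix is shared by 1 array of each group and is called replicate 1, 2 or 3 (0, 3 and 20 days after the first). Whether the day is that of culture, extraction or hybridisation is not given. All differences between groups are 4T1-MMP3lo minus 4T1-SC.

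Colony-stimulating factors are secreted proteins that make bone marrow precursors survive, divide and mature. Csf1 encodes M-CSF, the factor of monocytes and macrophages, Csf2 encodes GM-CSF, which acts on granulocytes and macrophages, and Csf3 encodes G-CSF, the main factor of neutrophils. 4T1 tumors are known for the excess of neutrophils that they raise in the mice that carry them. Il1a and Il1b encode both agonists of the IL-1 receptor, and Il1rn its antagonist. Il6 and Lif encode cytokines that signal through gp130, Il23a encodes the p19 subunit of IL-23, and Il24 encodes a cytokine of the IL-20 family.

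Array medians of the deposited intensities lay between 96.6 and 112.6, and each array detected 36.9% to 38.8% of the probes. Mmp3, the gene the hairpin was aimed at, had log2 levels of 11.52, 12.98 and 13.04 on the 3 arrays of 4T1-SC in the order of their replicates. It had 10.64, 13.40 and 13.33 in the arrays of the other group. It was lower on replicate 1 of these arrays and higher on replicates 2 and 3, and the difference of the means was far within its error (log2 difference -0.06, SE 0.74, limma adjusted p = 0.990). The lower level that the label names was thus not seen at this probe, and these arrays are called below the arrays with the 4T1-MMP3lo label. Of the carcinoma epithelium markers, Krt8, Krt18, Krt19, Krt7 and Cdh1 were detected on all 6 arrays and Epcam on none. Of the leukocyte markers, Ptprc, Adgre1, Itgam and Lyz2 were detected on none, Cd14 on all 6, and Cd3e and Csf1r each on 4. Their summed level, on a log2 scale, ran from 8.31 to 9.10 in 4T1-SC and from 8.83 to 9.30 in the arrays with the 4T1-MMP3lo label. Of the fibroblast markers, Col1a1, Pdgfrb and Thy1 were detected on none, Col1a2 on 1 array, Dcn on 2 and Pdgfra on all 6. Of the endothelium markers, Pecam1 was detected on none, Cdh5 on 1 array, Tek on 2 and Kdr on 3.

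Promoters are shown for the 4 genes with a RefSeq promoter window whose arrays of replicate 1 were both below the other 4 arrays, since these genes carry the main pattern described further on. Each window runs from 250 bases before the gene start that RefSeq annotates (build GRCm38.p6) to 50 bases after it, 5′ to 3′ along the gene. Capitals mark matches to the motifs searched on both strands.
Csf2 (chr11:54249850-54250149, minus strand): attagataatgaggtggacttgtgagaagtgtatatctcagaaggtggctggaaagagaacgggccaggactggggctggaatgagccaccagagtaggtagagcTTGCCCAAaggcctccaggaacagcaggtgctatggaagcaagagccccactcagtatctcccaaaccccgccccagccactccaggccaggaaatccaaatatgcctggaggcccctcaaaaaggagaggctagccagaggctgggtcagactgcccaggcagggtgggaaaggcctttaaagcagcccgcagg
Il1a (chr2:129309923-129310222, minus strand): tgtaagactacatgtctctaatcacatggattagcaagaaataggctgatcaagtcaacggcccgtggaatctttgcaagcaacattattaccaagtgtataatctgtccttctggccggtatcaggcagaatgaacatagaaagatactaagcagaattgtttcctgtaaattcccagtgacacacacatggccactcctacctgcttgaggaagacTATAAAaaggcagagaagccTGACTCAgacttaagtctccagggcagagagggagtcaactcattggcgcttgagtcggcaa
Il1b (chr2:129371090-129371389, minus strand): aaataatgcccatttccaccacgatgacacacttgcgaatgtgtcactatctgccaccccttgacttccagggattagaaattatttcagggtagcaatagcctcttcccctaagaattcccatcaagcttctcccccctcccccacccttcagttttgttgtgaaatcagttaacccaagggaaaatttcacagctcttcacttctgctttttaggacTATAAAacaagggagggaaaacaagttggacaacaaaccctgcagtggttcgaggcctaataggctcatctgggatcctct
Lif (chr11:4257318-4257617, plus strand): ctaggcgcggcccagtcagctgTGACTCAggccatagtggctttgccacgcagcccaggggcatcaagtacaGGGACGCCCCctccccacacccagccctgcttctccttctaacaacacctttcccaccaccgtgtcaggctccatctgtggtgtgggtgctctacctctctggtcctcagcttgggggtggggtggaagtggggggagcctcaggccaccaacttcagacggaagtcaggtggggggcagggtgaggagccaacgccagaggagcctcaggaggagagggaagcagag

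The motifs were AP-1 (TGANTCA), CRE (TGACGTCA), C/EBP (TTGCNNAA), the core of the CK-1 element known from colony-stimulating factor promoters (GAGATTCC), the TATA box (TATAAA) and NF-κB (by its consensus). Il1a had a TATA box starting 32 bases before the gene start and an AP-1 match 12 bases before it. Il1b had a TATA box 31 bases before the start and no other match. In Lif an AP-1 match started 228 bases before the start, and an NF-κB match 178 bases before it. Csf2 had a single C/EBP match 145 bases before the start. Among the other members with a window, Csf1 had an NF-κB match at 154 bases. Il6 had AP-1 at 249, C/EBP at 128 and NF-κB at 44 bases. Il1rn had AP-1 at 141 bases in the first of its windows, and in window 3 a TATA box match on the opposite strand, 14 bases after the start. No 2 of these matches overlapped. Of all 32851 windows in the table, 7.81% held the AP-1 motif, 1.79% CRE, 10.8% C/EBP, 0.904% the CK-1 core, 13.6% the TATA box and 8.46% NF-κB. The table had windows for 7 of the 10 members, and Csf3, Il23a and Il24 were not among them. These matches are a description of letters and were not tested against the array values.

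Il24 was the member that differed between the groups. Its transcript was lower on each array with the 4T1-MMP3lo label than on any 4T1-SC array. The deposited intensities, here and below in the order of the replicates, were 3335.9, 3985.8 and 3587.5 in 4T1-SC and 1846.8, 1399.6 and 1750.1 in the arrays with the 4T1-MMP3lo label. The groups did not overlap, and replicates within a group lay close together. After normalization the mean log2 level was 11.81 ± 0.06 (SD, n = 3) in 4T1-SC and 10.59 ± 0.07 (SD, n = 3) in the arrays with the 4T1-MMP3lo label, a 2.33-fold lower level. Il24 fell by 1.22 on the log2 scale (SE 0.17, limma adjusted p = 0.0216). On the normalized scale the pairs with the same suffix gave -1.21, -1.25 and -1.20. The deposited intensities were less even from pair to pair. Replicate 2 over replicate 1 was 1.19 in 4T1-SC and 0.758 in the other group, so that the evenness of the pairs rests on the normalization. Il24 is in the study's own list of changed genes, which was drawn up on these same arrays, so that its direction is not independent evidence. The call was lost without 4T1-SC replicate 2 (adjusted p = 0.0860) or 3 (0.102) and without replicate 2 (0.161) or 3 (0.159) of the arrays with the 4T1-MMP3lo label, while the log2 difference stayed between -1.26 and -1.19.

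**Figure D1:**
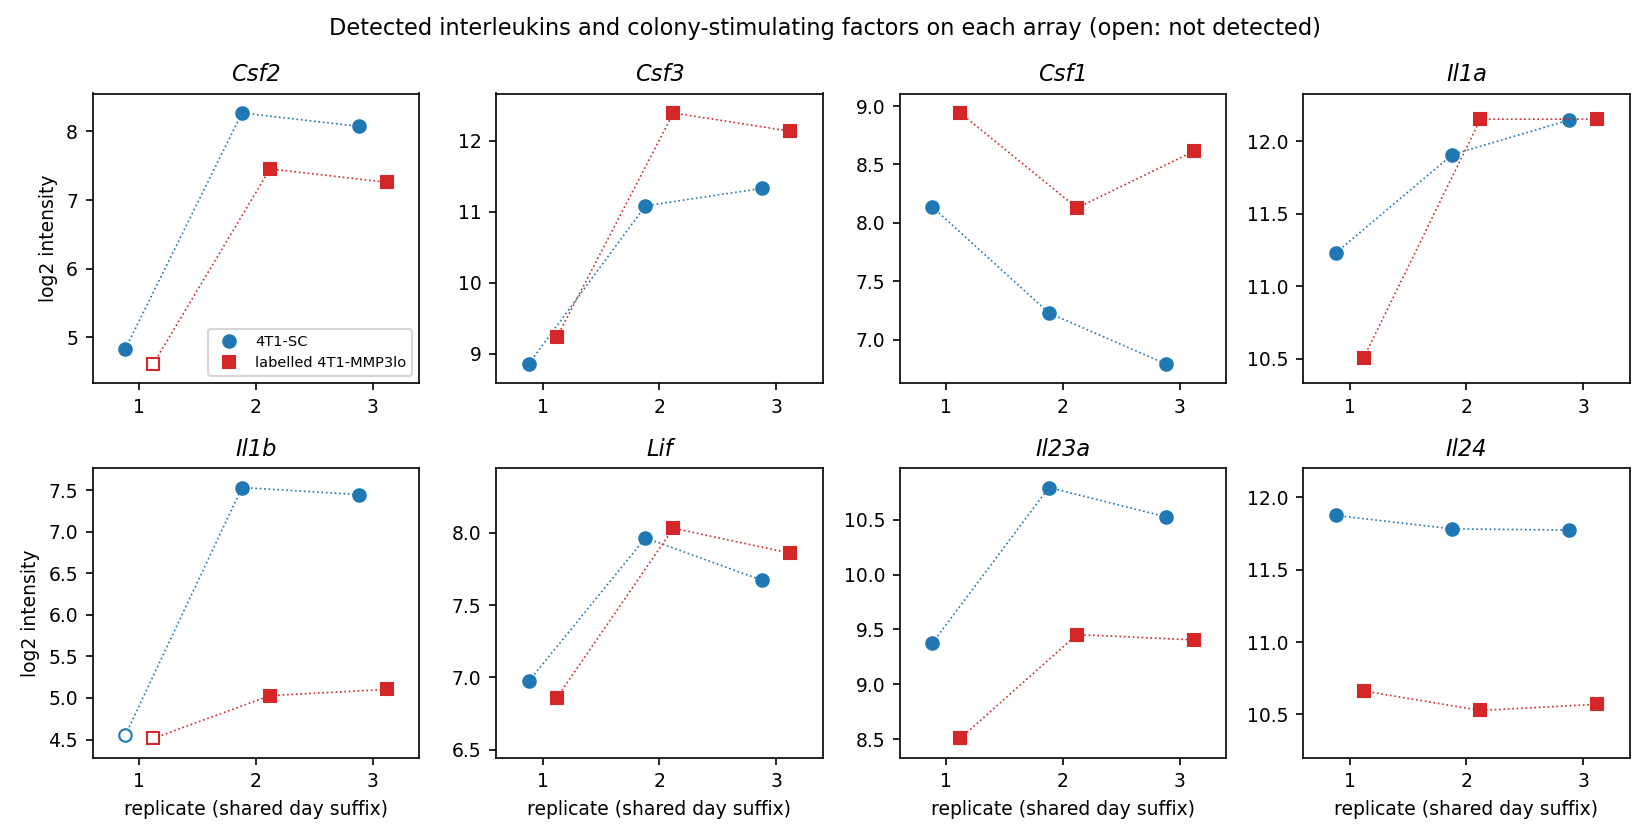
Normalized log2 intensity (vertical axis, its own scale in each panel) of the 8 detected members on the 6 arrays, by replicate (horizontal axis). Circles are 4T1-SC, squares the arrays with the 4T1-MMP3lo label, and open symbols were not detected; Il24 is apart between groups on all 3 replicates, whereas Csf2, Csf3, Il1a, Il1b, Il23a and Lif have both replicate 1 arrays below the other 4.

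Across all genes, 102 of the 9348 tested passed the test between groups (1.09%), 56 higher and 46 lower in the arrays with the 4T1-MMP3lo label. Among the members 1 of the 8 tested passed, and it was among the lower genes, which make up 0.492% of the genes tested. Groups that did not overlap were seen for 17.7% of all genes and for 1 of the 8 members, again Il24. The median difference of the 8 members was -0.39, beside 0.02 for all genes.

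Il23a and Csf1 differed in the same direction in all 3 pairs without passing the test. Il23a, whose p19 protein needs the p40 subunit encoded by Il12b to form IL-23, had intensities of 637.9, 1993.2 and 1512.8 in 4T1-SC and 477.4, 708.3 and 842.5 in the arrays with the 4T1-MMP3lo label. Only 4T1-SC replicate 1 lay within the range of the other group. The log2 difference of Il23a was -1.11 (SE 0.40, limma adjusted p = 0.315), with -0.87, -1.34 and -1.12 in the pairs. With the replicate as a block the SE was 0.18 and the adjusted p = 0.0382, so that the call of Il23a depended on the block, and without 4T1-SC replicate 1 the log2 difference was -1.52 and the adjusted p = 0.0133. Its second probe, at intensities of 107.4 to 165.9, gave -0.43. The p40 gene Il12b was not kept on these arrays.

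Csf1 was the member with the highest value in the arrays with the 4T1-MMP3lo label relative to 4T1-SC. Its intensities were 311.0, 264.4 and 197.9 in 4T1-SC and 613.1, 336.4 and 528.4 in the arrays with the 4T1-MMP3lo label, which do not overlap before normalization. On the normalized scale 4T1-SC replicate 1 (8.14) and replicate 2 of the other group (8.13) were level, so that the groups met. The log2 difference of Csf1 was 1.17 (SE 0.36, limma adjusted p = 0.213; 0.0658 with the replicate as a block), and the pairs gave 0.80, 0.90 and 1.82. Without 4T1-SC replicate 1 it was 1.54 with an adjusted p = 0.00788. Csf1r, which encodes the receptor of M-CSF, was detected on 4 arrays and gave -0.29 (adjusted p = 0.701).

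The other detected members had wide intervals between groups. Csf3 gave 0.83 (95% interval -1.25 to 2.91) and was higher in the arrays with the 4T1-MMP3lo label in all 3 pairs, by 0.37, 1.31 and 0.81, but it moved to 0.06 without 4T1-SC replicate 1 and to 1.84 without replicate 1 of the other group. Csf2 gave -0.62 (-2.94 to 1.71), with log2 differences of -0.22, -0.82 and -0.81 in the pairs. With an array left out it lay between -1.74 and 0.30. The replicate 1 pair of Csf2 was at the edge of detection. Its deposited intensity was higher with the 4T1-MMP3lo label (111.2 against 103.1), so that the sign of that pair rests on the normalization. Il1a gave -0.16 (-1.20 to 0.89) and Lif 0.05 (-0.79 to 0.88), with pairs of both signs. None of these passed with or without the block. The intervals leave room for differences of more than 1 on the log2 scale for Csf2, Csf3 and Il1a.

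**Figure D2:**
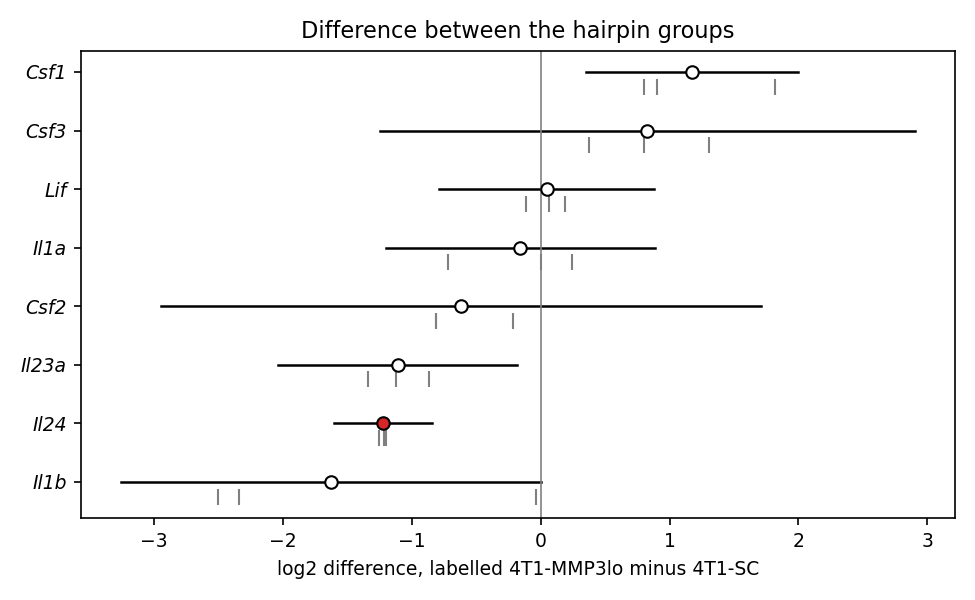
Log2 difference between the arrays with the 4T1-MMP3lo label and 4T1-SC (horizontal axis) for the 8 detected members, with its 95% confidence interval from limma. The filled point (Il24, -1.22) passed at an adjusted p under 0.05, open points did not, and grey ticks are the 3 pairs of arrays with the same suffix.

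Several members differed between days in the same direction. For 6 of the 8 members tested, Csf2, Csf3, Il1a, Il1b, Il23a and Lif, both replicate 1 arrays lay below all 4 later arrays, which held for 14.9% of all genes. Il1b was detected on the 4 later arrays only. It thus passed the detection filter through them, so that its place among the 6 was largely set by the filter. Csf2 likewise needed later arrays to pass, with detection p-values on replicate 1 of 0.0427 in 4T1-SC and 0.104 in the other group. Its place among the 6, and its call in the day test below, thus also leaned on the filter. The median of the later arrays minus replicate 1 was 1.16 on the log2 scale for the 8 members and -0.02 for all genes. In an F test of the day terms beside the group, 16 of the 9348 genes passed (0.171%), 15 of them with both later days higher, and 2 of the 16 were the members Csf2 and Csf3. At an unadjusted p under 0.05 the count of genes was 1249. Mmp3 had the same shape, with log2 differences of 2.11 and 2.11 from replicate 1 to replicates 2 and 3 (adjusted p = 0.142). Fewer cells that express a gene and less RNA per cell cannot be told apart in these bulk cultures. With 1 array of each group at each suffix, what differed between the days cannot be told apart from the day itself.

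Csf2, the GM-CSF gene, went from the edge of detection to a clear signal. Its intensities were 103.1, 440.7 and 353.0 in 4T1-SC, and 111.2 (not detected), 245.2 and 265.2 in the arrays with the 4T1-MMP3lo label. Both replicate 1 arrays were low and all 4 later arrays high. Csf2 rose by 3.14 on replicate 2 and 2.94 on replicate 3 on the log2 scale (SE 0.24 for each, limma adjusted p = 0.0197). In the arrays with the 4T1-MMP3lo label, where replicate 1 was not above background, the later level was at least 6.24-fold higher, taking the lowest detected signal of that array as the floor. This call was lost without 4T1-SC replicate 3 (adjusted p = 0.113) or replicate 3 of the other group (0.157), and on the authors' normalized values, which carry no background correction (later minus first 1.44, 0.145), and without the detection filter (0.272).

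Csf3, the G-CSF gene, rose on the later days. It had intensities of 465.9, 2431.4 and 2597.3 in 4T1-SC and 742.5, 4986.1 and 4927.6 in the arrays with the 4T1-MMP3lo label. On each of the 3 days the array with the 4T1-MMP3lo label was the brighter. Csf3 rose by 2.69 on replicate 2 and by 2.69 on replicate 3 (SE 0.27 for each, limma adjusted p = 0.0316), which is 6.47- and 6.44-fold. Its second probe was dim, with intensities of 97.4, 120.6 and 122.8 in 4T1-SC and 107.9, 132.8 and 159.5 in the other group, was not detected on either replicate 1 array, and gave log2 differences of 0.70 and 0.95 (adjusted p = 0.352 in the fit of every probe). The call was lost without 4T1-SC replicate 3 (adjusted p = 0.228) or replicate 3 of the other group (0.246), on the authors' normalized values (0.0969), without the detection filter (0.319) and with the mean of both probes (1.76, 0.102).

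Il1a and Lif were lower on replicate 1 in both groups by smaller amounts. Il1a, which encodes the IL-1α that epithelial cells hold ready, had intensities of 2185.8, 4300.3 and 4533.5 in 4T1-SC and 1669.9, 4222.3 and 4977.9 in the arrays with the 4T1-MMP3lo label. Its log2 differences from replicate 1 were 1.16 and 1.28 (adjusted p = 0.256), and the second probe gave 1.56 and 1.39 (0.133 in the fit of every probe). Lif, the leukemia inhibitory factor gene, had intensities of 179.1, 376.7 and 287.7 in 4T1-SC and 208.2, 319.5 and 353.2 in the other group by its brightest probe. The differences of that probe were 1.08 and 0.85 (adjusted p = 0.231). Of the 4 further Lif probes, 2 were detected on all arrays and gave positive differences on both later days (from 0.63 upwards), and 2 were not detected on any array. Il23a, with 1.18 and 1.02 (adjusted p = 0.216), had the same order by its brightest probe. Its second, dimmer probe gave 0.60 and 0.03 (0.467 in the fit of every probe) and did not have this order. Neither Il1a, Lif nor Il23a passed the day test.

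Csf1 and Il24 did not share the low replicate 1. Csf1 gave log2 differences of -0.86 and -0.84 from replicate 1 to the later days (adjusted p = 0.350), opposite in sign to the other colony-stimulating factors. Il24 gave -0.11 and -0.10 (adjusted p = 0.940), the smallest day differences of the 8 members.

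Il1b, the gene of IL-1β, showed a step from replicate 1 to the later arrays that differed in size between the groups. Its intensities were 97.4, 303.0 and 259.2 in 4T1-SC, and 108.1, 117.6 and 130.3 in the arrays with the 4T1-MMP3lo label. It was not detected on replicate 1 of either group. The later arrays of 4T1-SC stood far above background, and those with the 4T1-MMP3lo label just above it. On the log2 scale the 4T1-SC arrays were at 4.55, 7.53 and 7.45, and those with the 4T1-MMP3lo label at 4.51, 5.03 and 5.10. Later arrays were at least 6.53-fold above replicate 1 in 4T1-SC and at least 1.28-fold above it in the other group, against the lowest detected signal. The step from replicate 1 to the later arrays was 2.93 in 4T1-SC and 0.55 in the arrays with the 4T1-MMP3lo label, and the difference of the steps was -2.38 (SE 0.28, limma adjusted p = 0.0266). This comparison takes replicates 2 and 3 as replicates of each other and was chosen after seeing the data. It was passed by 0.877% of all genes (1521 genes at an unadjusted p under 0.05) and by 1 of the 8 members. Since replicate 1 was at background in both groups, the difference of the steps is in effect that of the later arrays. The call was lost without replicate 2 (adjusted p = 0.106) or 3 (0.0768) of the arrays with the 4T1-MMP3lo label, on the authors' normalized values (-1.12, 0.0789) and without the detection filter (0.0572). In the day test over both groups Il1b had an adjusted p = 0.334, with a mean of later minus first arrays that was 2.93 (0.00730) without replicate 1 of the arrays with the 4T1-MMP3lo label and 0.57 without 4T1-SC replicate 1. In the comparison of all arrays Il1b gave -1.63 (SE 0.71, adjusted p = 0.410), and without 4T1-SC replicate 1 it gave -2.63 (0.000326).

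**Figure D3:**
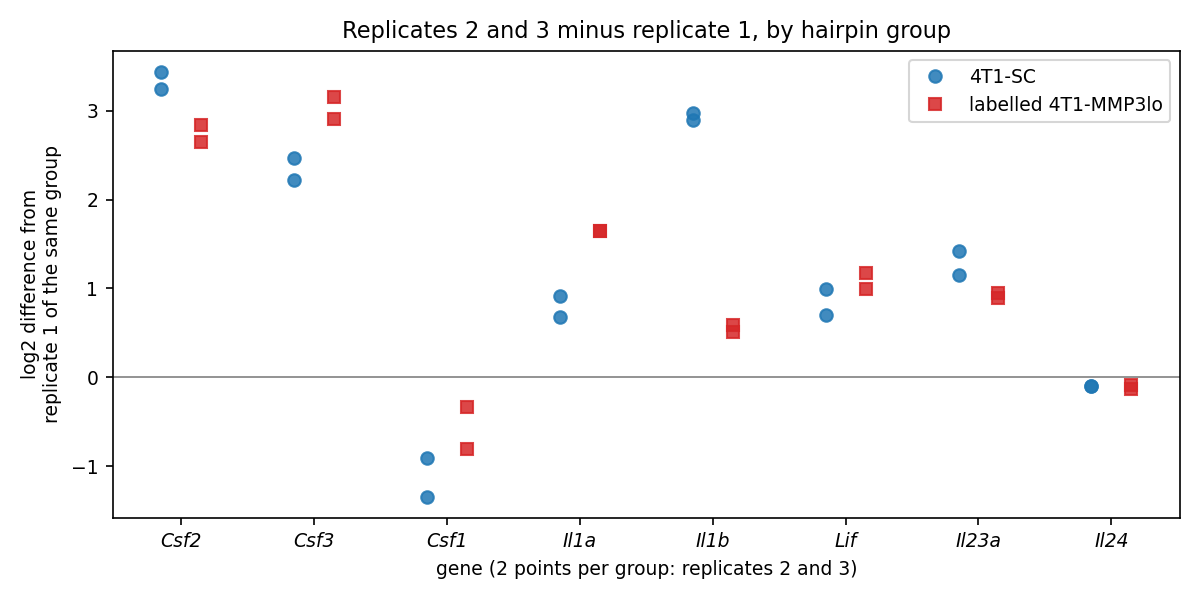
Log2 difference of replicates 2 and 3 from replicate 1 of the same group (vertical axis) for each detected member (horizontal axis), circles for 4T1-SC and squares for the arrays with the 4T1-MMP3lo label. Csf2 and Csf3 are up in both groups, Il1b stands at a mean of 2.93 in 4T1-SC and 0.55 in the other group, and Il24 stays near 0.

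The steps of Csf2, Csf3, Il1a, Il23a, Lif and Csf1 did not pass this test. They were 3.34 and 2.74 for Csf2 in 4T1-SC and the arrays with the 4T1-MMP3lo label, 2.35 and 3.03 for Csf3, 0.80 and 1.65 for Il1a, 1.28 and 0.92 for Il23a, 0.84 and 1.08 for Lif, and -1.13 and -0.57 for Csf1. Adjusted p-values for these differences lay between 0.248, for Il1a, and 0.743, for Lif. Il1a passed when 4T1-SC replicate 3 was left out (0.97, adjusted p = 0.0463). Il1a and Il1b both lie on chromosome 2, and their proteins act on the same receptor. By the brightest probe of each, the larger step was with the 4T1-MMP3lo label for Il1a and in 4T1-SC for Il1b. The second Il1a probe did not show this order clearly. Its intensities on replicates 2 and 3 over replicate 1 were 3.63 and 2.49 in 4T1-SC and 2.18 and 2.76 in the other group. With the mean of both probes the difference of the Il1a steps was 0.49 (limma adjusted p = 0.382).

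Il6 and Il1rn gave no signal above background. The single Il6 probe had intensities of 97.8, 116.4 and 100.9 in 4T1-SC and 106.9, 101.9 and 113.8 in the arrays with the 4T1-MMP3lo label, with detection p-values of 0.0727 to 0.815. The 4 Il1rn probes were likewise detected on no array, with intensities from 90.8 to 112.5. A signal below this background does not show that the transcripts were absent.

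The genes nearest to each member over the 6 arrays were taken by the root mean square difference of deviations from each gene's own mean, on the log2 scale. Nearest to Csf3 were Il11 (0.227), which like Il6 and Lif encodes a gp130 cytokine, and Csta3, a stefin gene (0.343). Il11 was the other cytokine gene that passed the day test, with log2 levels of 5.20, 7.14 and 7.52 in 4T1-SC and 6.01, 8.59 and 8.44 in the other group. It rose by 2.26 and 2.38 (adjusted p = 0.0333). Nearest to Il1b were Scara5, a ferritin receptor gene (0.192), and Plac8 (0.193), which had low values on every array but 4T1-SC replicates 2 and 3. Scara5 was at 4.65, 7.63 and 7.48 in 4T1-SC and 5.06, 5.26 and 5.55 in the other group. Plac8 was at 4.78, 7.60 and 7.20 and at 4.75, 5.10 and 5.47.

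Nearest to Il24 were Rasef (0.147) and Ovol2, which encodes a transcription factor of epithelial cells (0.163). Both also passed the test between groups. They were picked for their likeness to Il24 on these same arrays, so that this follows largely from the choice and is no separate result. Rasef fell by 1.02 (limma adjusted p = 0.0477) and Ovol2 fell by 1.01 (0.0443). Il23a lay nearest to Prag1 (0.144) and Lamb3, a laminin-332 chain (0.188), and Csf1 nearest to Sag (0.173) and Ccdc114 (0.186). Csf2 was nearest to Prl2c3, which encodes a proliferin (0.386), and Prss12 (0.421). These were the largest distances, but its own range of 3.65 was the widest and the measure is not scaled to range. Il1a was nearest to Ctsl, the cathepsin L gene (0.198), and Rcan1 (0.206). Lif was nearest to Laptm4a (0.0879) and Plod2 (0.0917), though its own range of 1.17 was the narrowest. Likeness over 6 arrays is a description of these libraries.

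**Figure D4:**
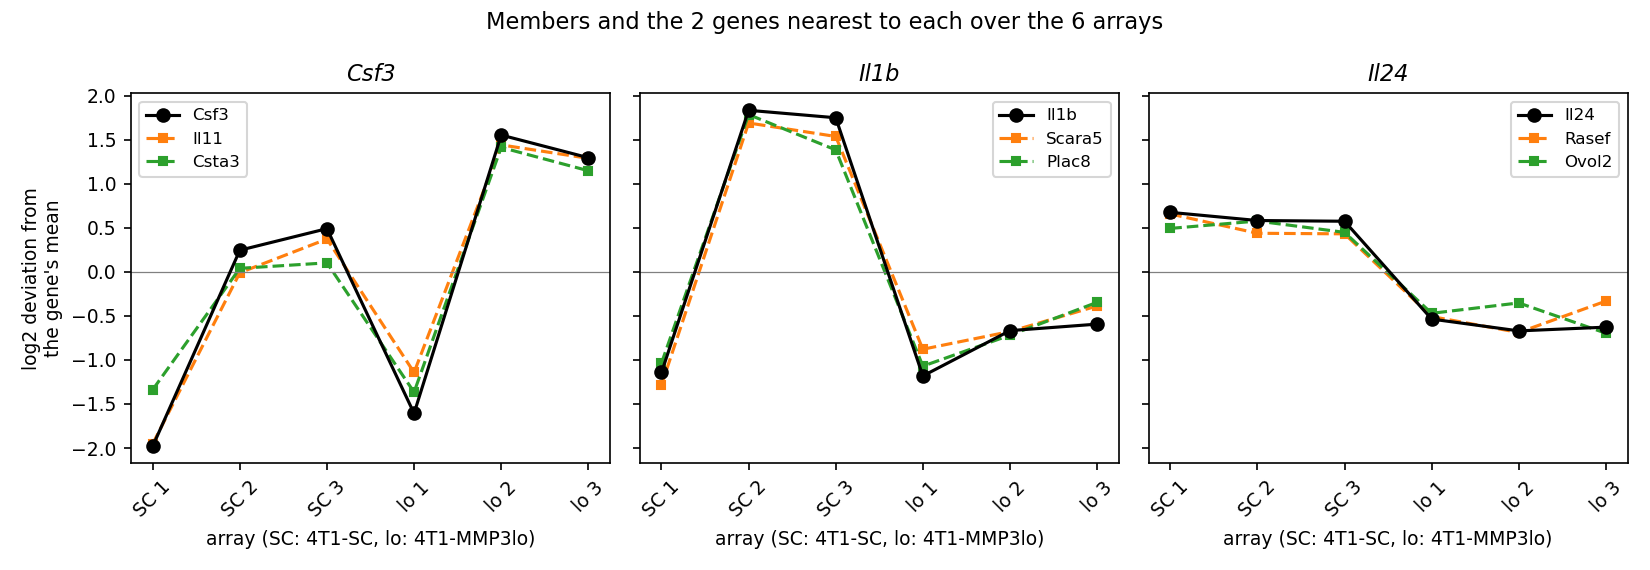
Log2 deviation from the gene's own mean (vertical axis) on the 6 arrays (horizontal axis) for Csf3, Il1b and Il24 (black) and the 2 genes nearest to each (dashed). Csf3, Il11 and Csta3 are low on both replicate 1 arrays, Il1b, Scara5 and Plac8 are high on 4T1-SC replicates 2 and 3, and Il24, Rasef and Ovol2 separate the groups.

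No gene in the lists of partners, regulators and markers passed the test between groups, with or without the block, and Il11 was the only one to pass the day test. Among 17 receptor genes 8 were tested, and Csf2ra, Csf3r, Il1r1, Il6st and Lifr were not among them. Their median difference between groups was -0.18. The 2 with the largest difference were Il12rb1, a subunit of the IL-23 receptor (0.49, adjusted p = 0.372), and Il1rap, the accessory chain of the IL-1 receptor (-0.38, 0.637). The IL-24 receptor genes Il20ra and Il20rb were both near background, at mean log2 levels of 4.63 to 5.10. Of 43 other cytokine genes 12 were tested, with Il11 (1.06, 0.663) and Kitl, the stem cell factor gene (0.91, 0.141), in the lead. Their median of later minus first arrays was 0.56.

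Among 17 genes of IL-1 processing and signalling 13 were tested, with a median of 0.14 between groups. Casp1, whose protease cuts the IL-1β precursor, gave 1.19 (adjusted p = 0.472), and Sigirr, an inhibitor of IL-1 receptor signalling, gave 0.58 (0.248). Casp1 was at 7.30, 9.63 and 9.57 in 4T1-SC and 9.53, 10.30 and 10.23 in the arrays with the 4T1-MMP3lo label, so that 4T1-SC replicate 1 alone was far below the rest. In the JAK-STAT list 11 of 14 genes were tested, and Jak2 (-1.06, 0.341) and Socs2 (-0.87, 0.521) had the largest differences. Jak2 was at 9.30, 11.02 and 10.72 in 4T1-SC and 9.21, 9.24 and 9.43 in the other group, high on the same 2 arrays as Il1b.

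All 10 genes of cytokine mRNA decay were tested, among them Zfp36, which encodes tristetraprolin (-0.41, adjusted p = 0.626). The leading differences there were those of Khsrp (-0.58, 0.553) and Tial1 (-0.43, 0.659), and the list's median was -0.13. Of 16 genes for transcription factors of cytokine promoters 13 were tested. Ets2 gave -1.07 (0.0763) and Junb, an AP-1 subunit, gave -0.97 (0.519). Junb was at 10.24, 12.47 and 12.10 in 4T1-SC and 10.32, 10.75 and 10.81 in the other group. Of the marker lists, the leading genes were Cdh1 (-0.72, 0.326) and Krt19 (-0.66, 0.527) for epithelium and Cd3e (0.35, 0.545) and Csf1r (-0.29, 0.701) for leukocytes. The 1 fibroblast and 1 endothelium marker tested were Pdgfra (0.93, 0.470) and Kdr (0.19, 0.773). Pdgfra was lower on replicate 1 of each group, at 6.62 in 4T1-SC and 7.91 in the other group, than on its later arrays, by 1.26 on average. The summed leukocyte markers were likewise lowest on replicate 1 of each group, at 8.31 and 8.83, but most of this sum was Cd14 (8.02 and 8.63). Cd3e was lowest on replicate 1 only with the 4T1-MMP3lo label and highest there in 4T1-SC (5.08, 4.67 and 4.67). Csf1r was lowest on replicate 1 only in 4T1-SC. The part of these signals in the day differences of the members was not tested.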

How the data were processed

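Total RNA, labelled with biotin by the standard Illumina protocol, was hybridised to MouseWG-6 bead arrays, 3 of each group. The authors deposited linear probe intensities with no visible background correction or normalization, and beside each a detection p-value. They also deposited log2 values that have the same quantiles on every array. The scanner software and its version are not given in the sources used here.

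Intensities were background corrected and quantile normalized with neqc (offset 16) of limma 3.58.1 in R 4.3.3. Of 45281 probes, 34885 had 1 gene symbol, 18 had several and 10378 were unnamed. Probes with a detection p-value under 0.05 on 3 or more arrays (16969) were kept, and the brightest stood for its gene. Groups, days and steps were fitted to all 9348 genes with lmFit and eBayes. Adjustment was by Benjamini-Hochberg over those genes, and "rose" and "fell" are used of results under 0.05 after it. A bound for a probe not above background sets the mean of the bright arrays against the lowest detected signal of the dim array. The number of arrays, 3 in each group, limits the precision.

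The titles give 1 array of each group the same suffix. Deviations from group means of same-numbered arrays correlated across genes at 0.442, 0.212 and 0.283, so that the arrays were taken as paired for the block. The crossed pairs of replicates 2 and 3 gave 0.309 and 0.235, so that these replicates are told apart by the labels alone. The block was an alternative.

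The genes named were all members, in each list those that passed between groups or else the 2 with the largest difference, and the 2 genes nearest to each member that spanned over 1 on the log2 scale. Other genes named (Il11 for the day test, Il20ra, Il20rb, Csf1r as the receptor of M-CSF, Zfp36, Il12b) were added with their values seen. The members and lists were chosen with earlier results of these data known. Alternatives were no background correction, the authors' log2 table, an offset of 50, a median shift, no detection filter, the mean of probes, every probe, each array left out (for the steps, each of replicates 2 and 3), the block and the t-test of the methods. The fits were tested on simulated data. Python 3.11.15 and matplotlib 3.10.9 made the figures and the motif search.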

Additional observations from a re-analysis of the deposited data

Results flagged for a closer look

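The step of Il1b from replicate 1 to the later arrays was singled out because the groups differed in it by a test of that difference. It was 2.93 on the log2 scale in 4T1-SC and 0.55 in the arrays with the 4T1-MMP3lo label, a difference of -2.38 (SE 0.28, limma adjusted p = 0.0266). The probe was not detected on replicate 1 of either group, and the test was chosen after seeing the data.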

How the results depend on the processing

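Between groups 102 genes passed. The count was 12 without background correction and on the authors' log2 table, 38 with an offset of 50, 30 without the detection filter, 194 with the replicate block, 0 by the methods' t-test (1054 at an unadjusted p under 0.05), and 0 to 1004 with an array left out. At an unadjusted p under 0.01 and over 2-fold that test gave 120 genes, Il24 the 1 member among them, and limma 253. Of the members 1 passed, 2 with the replicate block (Il24 and Il23a), 0 by the methods' t-test (Il24 at an adjusted p = 0.0850) and 0 to 4 with an array left out, the 4 being those without 4T1-SC replicate 1. The block changed no other member's call. Between days 16 genes passed, 0 without background correction, on the authors' table (1335 at an unadjusted p under 0.05 for both) or without the detection filter (1950), 9 with a median shift and 0 to 339 with an array left out. Of the members 2 passed, 0 under the same first 3 settings, 1 with the mean of probes and 0 to 3 with an array left out (Il1b the third, without replicate 1 of the arrays with the 4T1-MMP3lo label). The difference of steps was passed by 82 genes, 24 without background correction and on the authors' table, 53 with an offset of 50, 224 with a median shift, 0 without the detection filter (2400 at an unadjusted p under 0.05) and 22 to 1204 with an array of replicate 2 or 3 left out. Without a replicate 1 array its group has no step, so that those were not run. Of the members 1 passed, 0 without background correction, on the authors' table or without the filter, and 0 to 2 with an array of replicate 2 or 3 left out. Differences between groups of Csf2, Il1a and Lif, none of which passed, changed sign with some arrays left out. Background limits Il6, Il1rn and replicate 1 of Il1b and Csf2.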
